A study of Arabidopsis thaliana with 4 samples.

Results

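A set of 46 transcripts, of 33602 genes in the deposited table, was chosen by its levels, which lay under 0.5 RPKM in both control libraries and at 3 RPKM or more in both libraries made after 0.5 h of glutamate. RPKM is reads per kilobase of gene, scaled to library depth, here on the authors' scaling by the trimmed mean of M-values (TMM). Genes were also required to have a maxMultiRatio under 0.1. The file does not define this fraction, taken here to be how much of the gene's signal comes from reads placed in more than one locus. The near-silent genes of the control libraries numbered 12272, so that 46 of them, or 0.375%, reached the higher level. Since these values chose the set, its levels and changes are a description of these 4 libraries and carry no test.

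The seedlings were whole Arabidopsis thaliana plants of the ecotype Col-0, a natural accession with no transgene or mutation named in the labels, and were 14 days old. All had been grown hydroponically in a basal salt mixture lacking nitrogen. The control group, 0 h, held 2 RNA-seq libraries, and the other group held 2 libraries from seedlings kept for 0.5 h in the same mixture with 2.5 mM glutamate. No library from seedlings moved to fresh medium without glutamate was analysed here, so glutamate, the move and the elapsed time cannot be told apart. Whether a group's libraries are separate cultures is not stated in the labels, so p-values below reflect only the spread of these libraries, possibly a technical one.

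Recovered reads ranged from 21776595 to 27674435 per library. In a gene of 1 kb, 3 reads were worth 0.104 to 0.152 RPKM, without the 0.5 reads that each deposited value includes. Of the 5 shoot genes checked, all lay between 20.4 and 6421 RPKM in every library. By the limma test described below, 4 of them were lower after glutamate. GLK2 fell from 99.6 and 102 RPKM to 20.4 and 24.0 RPKM (adjusted p = 0.000262), LHCB3 from 1925 and 1701 RPKM to 839 and 782 RPKM (adjusted p = 0.00266), PSAD-2 from 767 and 741 RPKM to 354 and 318 RPKM (adjusted p = 0.00196) and RCA from 1528 and 1311 RPKM to 939 and 715 RPKM (adjusted p = 0.0265). The call for RCA was lost with no filter on low values (adjusted p = 0.0766), without the first control library (adjusted p = 0.0836) and without the second glutamate library (adjusted p = 0.123). Among the 6 root genes, PHT1;1 and CASP1 lay between 9.87 and 39.3 RPKM and EXPA7 between 0.486 and 1.09 RPKM, whereas NAS2, IRT1 and SHV2 stayed at or under 0.410 RPKM. PHT1;1 fell from 39.3 and 35.8 RPKM to 19.4 and 19.0 RPKM (adjusted p = 0.00349). The part of these shifts in the levels of the 46 transcripts was not tested. In RNA from whole seedlings, more cells that express a gene and more RNA per cell cannot be told apart.

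Glutamate is an amino acid and, in plants, also a signal that glutamate receptor-like channels perceive, with a rise of cytosolic calcium as an early event. Genes that respond within minutes to such signals, wounding or microbial elicitors are commonly transcription factors, signalling proteins and short-lived regulators. Many of them are known for short genes with few introns and for calcium-linked promoter elements.

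The 46 transcripts reached a median of 6.63 RPKM after glutamate, as the mean of both libraries, with a range from 3.56 to 77.5 RPKM. Their control values lay between 0.0144 and 0.497 RPKM, and the groups did not overlap for any of them, as the rule requires. A mean of at least 5 RPKM was reached by 30, at least 10 RPKM by 16, at least 20 RPKM by 7 and at least 50 RPKM by 2. For comparison, the 13187 genes with 3 RPKM or more in both glutamate libraries had a median of 17.2 RPKM. The set took 0.00126% of all reads before glutamate and 0.0449% after it.

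**Figure D1:**
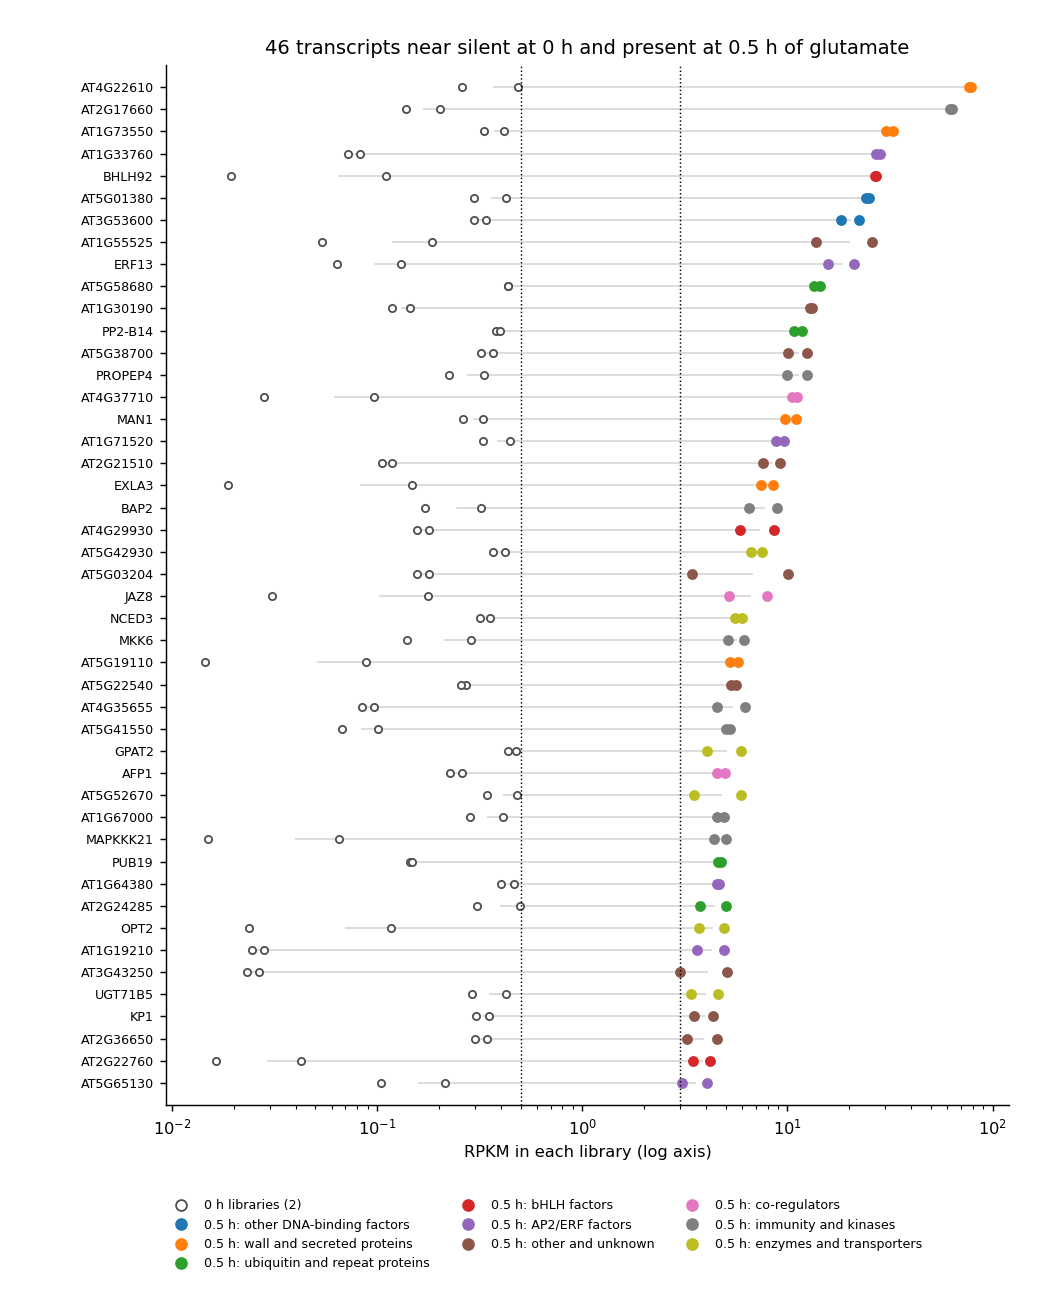
RPKM (log axis) of the 46 transcripts in each of the 4 libraries, ordered by their mean after glutamate. Open points are the 2 control libraries and filled points the 2 glutamate libraries, coloured by protein class, grey lines join the means, and dotted lines mark 0.5 and 3 RPKM. A library without a read is drawn at the deposited value, which stands for 0.5 reads. The top 2 transcripts lie above 50 RPKM, and most of the others lie between 3 and 30 RPKM.

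Near silence was seldom complete. Over both control libraries, 4 of the 46 transcripts had no read, 9 had 1 to 3 reads, 10 had 4 to 9 reads and 23 had 10 or more, with a median of 9.5 and a highest value of 63 reads. For the 42 transcripts with a control read, the ratio of reads per effective library size was 41.9 at the median and ran from 10.8 to 649. The 4 without a control read were AT5G03204, AT4G35655, AT1G19210 and AT3G43250. They were at least 13.5-fold, 19.8-fold, 54.4-fold and 55.2-fold higher after glutamate, against a floor of 3 reads over the control group. Intervals and floors here cover counting error only. That all ratios are high follows from the rule that chose the set.

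**Figure D2:**
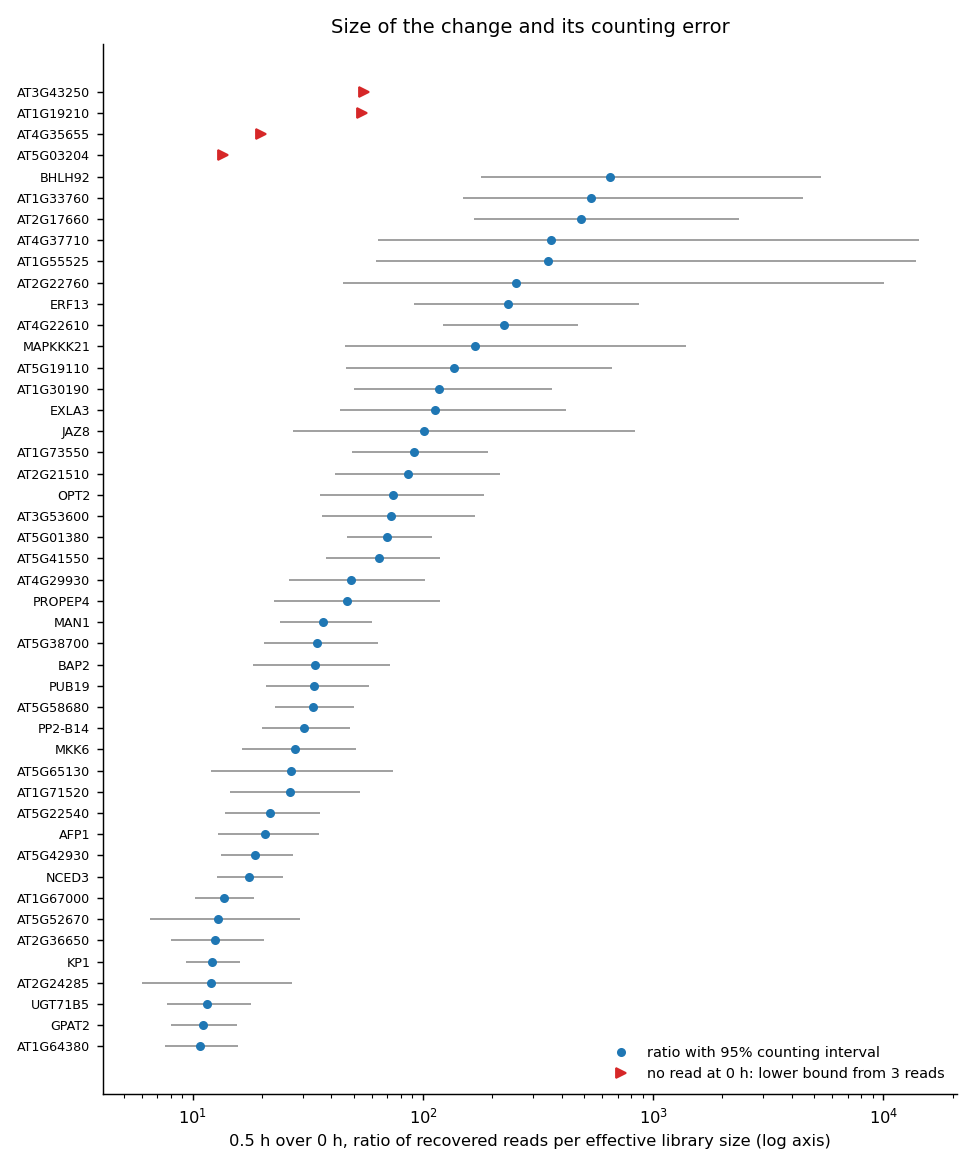
Ratio of recovered reads after glutamate to those in the control, per effective library size (log axis), for each transcript. Points with lines are the 42 ratios with their exact 95% counting intervals, from 10.8 to 649, and triangles are the lower bounds of the 4 transcripts without a control read, from 13.5 to 55.2.

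Both tails of the near-silent genes were counted for scale. Of the 12272, 11734 stayed under 0.5 RPKM in both glutamate libraries, 147 were at 1 RPKM or more in both, 70 at 2 or more, and 28 at 5 or more. A further 16 genes reached 3 RPKM in only one glutamate library. The opposite pattern, 3 RPKM or more in both control libraries and under 0.5 RPKM in both glutamate libraries, was found for 3 of 12128 genes, or 0.0247%. These were AT1G70860, at 4.03 and 8.10 RPKM before and 0.369 and 0.328 RPKM after glutamate, RTFL10, a small peptide gene, at 5.75 and 4.59 RPKM before and 0.239 and 0.206 RPKM after, and MYB27, a transcription factor, at 3.68 and 3.87 RPKM before and 0.136 and 0.0704 RPKM after.

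**Figure D3:**
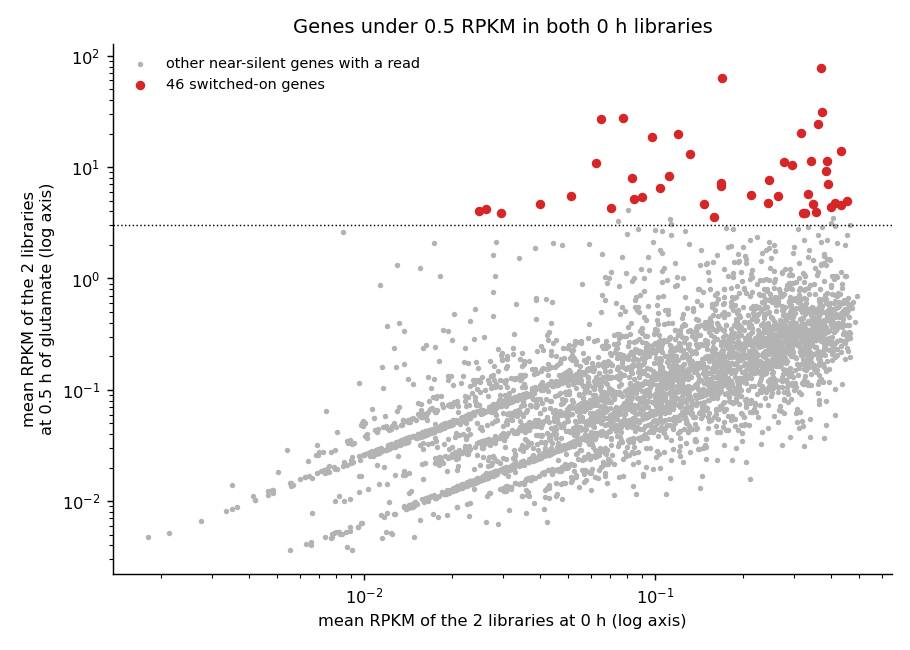
Mean RPKM before (x) and after 0.5 h of glutamate (y), both on log axes, of genes under 0.5 RPKM in both control libraries that had a read in any library. Red points are the 46 transcripts, grey points the other genes, and the dotted line marks 3 RPKM. Of the 12272 near-silent genes, 8033 had no read in any library and are not drawn. Mean control values of the 46 transcripts run from 0.0248 to 0.454 RPKM.

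The genes had a median length between those of near-silent genes and of genes at 3 RPKM or more, and many had a single exon. Of the 45 protein-coding ones, 22 (48.9%) had a single exon in RefSeq TAIR10.1, against 29.8% of near-silent protein-coding genes, 18.9% of all 26712 protein-coding genes in the table and 11.3% of those at 3 RPKM or more in both glutamate libraries. The median deposited gene length was 1.10 kb, against 1.01 kb among near-silent genes. It was 1.335 kb among all genes and 1.52 kb among genes at 3 RPKM or more. At most 3 exons were found in 37 of the 46, and the most, 18, in KP1, a kinesin-like motor protein. The share of other genes with at most 3 exons was not counted. The remaining gene, AT1G55525, is annotated as a non-coding RNA. The genes lay on chromosomes 1 to 5 in numbers of 15, 7, 5, 6 and 13, and none was next to another.

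Promoter sequence was read from RefSeq TAIR10.1, for 45 of the 46 genes, over 250 bases before and 50 bases after the annotated start. Several short motifs were counted on both strands. The W-box (TTGACC or TTGACT), bound by WRKY factors, was in 48.9% of the windows, against 32.4% of all 27443 windows of protein-coding genes. The G-box (CACGTG), bound by bHLH and bZIP factors, was in 24.4% against 7.68%. The letters CGCGT or CGCGG, part of the element bound by calmodulin-binding CAMTA factors, were in 37.8% against 11.1%. Near-silent genes as a whole held these motifs in 30.1%, 5.63% and 9.04% of windows. Exact 95% binomial intervals were 33.7% to 64.2% for the W-box, 12.9% to 39.5% for the G-box and 23.8% to 53.5% for the CAMTA letters. Such intervals treat the genes as independent random draws, which a set chosen by a rule is not. The genes and motifs were also chosen with earlier results of these data known. The intervals are therefore descriptive and carry no test against the other shares.

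The other motifs were counted in the same windows. The W-box core (TTGAC), contained in the W-box, was in 66.7% of windows against 50.5%, and the ABRE core (ACGTG), which every G-box contains, in 48.9% against 26.7%. The TATA box (TATAAA) was in 71.1% against 52.1%, the G-box-like CACATG in 22.2% against 12.9%, the DRE core (CCGAC) in 17.8% against 15.0% and the heat shock element (GAANNTTC) in 17.8% against 11.6%. The GCC-box (GCCGCC) was in 0 of the 45 windows against 2.57% of all, with an interval up to 7.87%. A match describes letters in a window and is not evidence of binding.

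**Figure D4:**
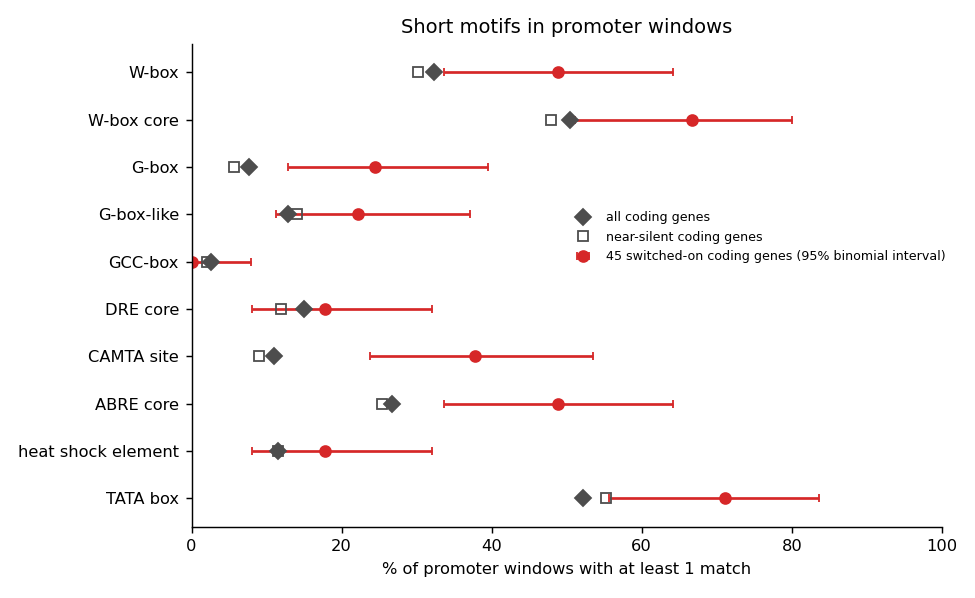
Percent of promoter windows (x) with at least 1 match to each motif (y). Red points are the 45 protein-coding genes with exact 95% binomial intervals, diamonds all 27443 protein-coding genes and open squares the 7377 near-silent ones. The red points for the G-box and the CAMTA site lie at 24.4% and 37.8%, above 7.68% and 11.1% for all genes. The intervals treat the genes as independent draws and carry no test.

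The 250 bases upstream of 6 of the genes are printed because they hold the most matches to the W-box, the G-box and the CAMTA letters combined, among 37 genes whose stretch overlaps no annotated exon. They were picked after the motifs were counted and stand for no other gene of the set. Each reads 5′ to 3′ on the gene's strand and ends at the base before the annotated start, and capitals mark matches to these 3 motifs on either strand. The positions are chr5:17534797-17535046 on the minus strand for BHLH92, chr3:16892452-16892701 on the plus strand for EXLA3, chr1:21063048-21063297 on the minus strand for PP2-B14, chr4:17717868-17718117 on the plus strand for AT4G37710, chr5:6413312-6413561 on the minus strand for AT5G19110 and chr1:22198016-22198265 on the plus strand for PUB19, all in TAIR10.1.
BHLH92: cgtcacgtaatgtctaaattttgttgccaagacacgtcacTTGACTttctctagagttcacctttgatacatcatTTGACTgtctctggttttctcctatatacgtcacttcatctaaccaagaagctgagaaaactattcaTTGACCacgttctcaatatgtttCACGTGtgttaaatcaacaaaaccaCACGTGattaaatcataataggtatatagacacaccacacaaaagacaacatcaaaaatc
EXLA3: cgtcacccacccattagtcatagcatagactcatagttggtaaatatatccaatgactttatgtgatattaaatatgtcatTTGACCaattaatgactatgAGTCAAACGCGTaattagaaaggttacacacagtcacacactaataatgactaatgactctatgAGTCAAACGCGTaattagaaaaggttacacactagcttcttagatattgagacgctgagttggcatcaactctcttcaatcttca
PP2-B14: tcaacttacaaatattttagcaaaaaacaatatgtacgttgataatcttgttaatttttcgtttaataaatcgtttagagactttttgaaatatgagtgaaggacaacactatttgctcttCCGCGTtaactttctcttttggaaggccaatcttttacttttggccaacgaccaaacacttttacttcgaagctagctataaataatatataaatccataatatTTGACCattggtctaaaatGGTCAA
AT4G37710: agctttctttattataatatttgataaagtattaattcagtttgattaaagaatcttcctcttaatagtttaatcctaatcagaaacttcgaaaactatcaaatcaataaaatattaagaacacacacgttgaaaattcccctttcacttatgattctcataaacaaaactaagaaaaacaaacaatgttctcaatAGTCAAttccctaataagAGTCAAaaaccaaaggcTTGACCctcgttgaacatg
AT5G19110: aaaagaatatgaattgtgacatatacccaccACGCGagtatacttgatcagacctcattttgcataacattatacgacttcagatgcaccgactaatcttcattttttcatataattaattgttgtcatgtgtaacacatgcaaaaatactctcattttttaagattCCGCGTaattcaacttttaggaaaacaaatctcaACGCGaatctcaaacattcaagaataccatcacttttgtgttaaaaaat
PUB19: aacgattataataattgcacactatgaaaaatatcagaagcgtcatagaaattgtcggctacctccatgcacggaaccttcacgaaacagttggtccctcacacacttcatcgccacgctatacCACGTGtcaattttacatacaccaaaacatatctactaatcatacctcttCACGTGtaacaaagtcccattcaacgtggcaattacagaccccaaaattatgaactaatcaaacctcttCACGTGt

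The BHLH92 stretch held 3 W-boxes, which begin 210, 175 and 108 bases before the start, and 2 G-boxes, at 85 and 60 bases. In EXLA3, a W-box is followed directly by the CAMTA letters in 2 places, with the W-boxes beginning 149 and 85 bases before the start. PP2-B14 had 1 CAMTA match and 2 W-boxes, the latter within 25 bases of the start. AT4G37710 held 3 W-boxes, PUB19 held 3 G-boxes and AT5G19110 held 3 CAMTA matches, where overlapping letters count once. Of the 45 genes, 31 had at least 1 of these 3 motifs upstream of the start and 14 had none. The share of all genes with at least 1 of the 3 was not counted. Taken singly in these upstream bases, the W-box was in 46.7% against 28.4% of all genes. The G-box was in 24.4% against 6.49%, and the CAMTA letters in 26.7% against 8.68%.

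DNA-binding factors made up 11 of the 46, and 5 of the 10 highest. Their share over all genes was not counted, so these counts do not show that such factors were over-represented. The AP2/ERF, bHLH and C2H2 zinc finger families held 6, 3 and 1 of the 46. Of the 12272 near-silent genes, members included, these families held 74, 41 and 49. Among 6 genes of the AP2/ERF family, plant factors that often act in ethylene, jasmonate and stress responses, AT1G33760 was highest, at 0.0723 and 0.0827 RPKM before and 27.1 and 28.3 RPKM after glutamate. That is a ratio of 539, with an interval from 149 to 4459 because only a few control reads stand behind it. ERF13, an ethylene response factor, stood at 0.130 and 0.0640 RPKM before and at 15.8 and 21.2 RPKM after, a ratio of 235 (interval 91.3 to 864). AT1G71520 had 0.328 and 0.444 RPKM before and 8.83 and 9.63 RPKM after. The other 3 were lower, with AT1G64380 at 4.65 and 4.52 RPKM, AT1G19210 at 3.61 and 4.89 RPKM and AT5G65130 at 3.06 and 4.05 RPKM after glutamate, the last being the lowest mean of the set.

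BHLH92, a basic helix-loop-helix (bHLH) factor, had the highest ratio of the 42. It had 0.0193 and 0.111 RPKM before and 26.6 and 27.0 RPKM after glutamate, 649-fold with an interval from 179 to 5367, and the first control library held no read. AT4G29930 reached 5.90 and 8.61 RPKM from 0.156 and 0.179 RPKM. AT2G22760 reached 3.47 and 4.20 RPKM from 0.0427 and 0.0163 RPKM, and its ratio of 253 has an interval from 44.9 to 10035, so that its size is poorly fixed. The homeodomain-like factor AT5G01380 went from 0.425 and 0.298 RPKM to 24.0 and 25.0 RPKM. The C2H2 zinc finger gene AT3G53600 went from 0.296 and 0.339 RPKM to 18.2 and 22.3 RPKM.

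Co-regulators, which bind transcription factors rather than DNA, numbered 3. AT4G37710 encodes a protein with a VQ motif, a class known to bind WRKY factors, and had 0.0282 and 0.0969 RPKM before and 10.6 and 11.1 RPKM after glutamate. JAZ8, a repressor of jasmonate signalling known for its resistance to jasmonate-induced degradation, had 0.0308 and 0.176 RPKM before and 5.16 and 7.93 RPKM after. AFP1, which binds the abscisic acid factor ABI5, reached 4.51 and 4.97 RPKM from 0.227 and 0.260 RPKM. AFP1 overlaps 32 bases of the receptor kinase gene RPK1 on the other strand, which rose from 8.66 to 22.9 RPKM (limma adjusted p = 0.0132), and the use of strand in the counting is not given in the sources used here, so that reads of the overlap cannot be told apart.

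Cell wall and secreted proteins included the highest transcript. AT4G22610, of the superfamily of lipid-transfer proteins and 2S albumins, small cysteine-rich secreted proteins, stood at 0.484 and 0.259 RPKM before and at 78.0 and 77.0 RPKM after glutamate. The ratio was 225, with an interval from 122 to 470. Its relative AT1G73550 went from 0.417 and 0.331 RPKM to 32.6 and 30.1 RPKM.

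MAN1, a glycosyl hydrolase of the endo-mannanase type that cuts wall mannan, had 0.262 and 0.329 RPKM before and 11.0 and 9.76 RPKM after glutamate. EXLA3, an expansin-like protein related to the wall-loosening expansins, had 0.147 and 0.0187 RPKM before and 8.48 and 7.42 RPKM after. AT5G19110, of the aspartyl protease family, reached 5.27 and 5.75 RPKM from 0.0883 and 0.0144 RPKM. These 3 had ratios of 36.9, 113 and 137.

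Immunity and kinase genes numbered 8. AT2G17660 is of the family of RIN4, a plasma membrane regulator of plant immunity that bacterial effectors target, and was the second highest transcript, at 0.201 and 0.138 RPKM before and 63.7 and 62.0 RPKM after glutamate, 486-fold with an interval from 166 to 2361. A second gene of that family, AT4G35655, had no control read and reached 4.52 and 6.22 RPKM. PROPEP4, the precursor of a danger peptide that the PEPR receptors perceive, went from 0.225 and 0.331 RPKM to 9.96 and 12.5 RPKM.

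BAP2, whose family is known to restrain cell death, went from 0.320 and 0.171 RPKM to 6.49 and 8.86 RPKM. The MAP kinase cascade genes MKK6 and MAPKKK21 reached 5.11 and 6.15 RPKM and 5.04 and 4.38 RPKM. AT5G41550, a TIR-NBS-LRR gene of the class of intracellular immune receptors, reached 5.01 and 5.23 RPKM, and the protein kinase gene AT1G67000 reached 4.54 and 4.89 RPKM. The kinase gene had the highest maxMultiRatio of the set, 0.0810, and its reads are the least certain to be its own.

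Genes of ubiquitin ligases and repeat proteins numbered 4. AT5G58680, an ARM repeat protein, had 0.434 and 0.433 RPKM before and 14.4 and 13.5 RPKM after glutamate. PP2-B14, an F-box protein of the phloem protein type, had 0.379 and 0.399 RPKM before and 10.7 and 11.8 RPKM after. PUB19, a U-box ubiquitin ligase known to act in abscisic acid responses, reached 4.59 and 4.72 RPKM from 0.145 and 0.148 RPKM, and the RING protein gene AT2G24285 reached 3.73 and 5.04 RPKM.

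Enzymes and transporters had the lowest median of the 9 classes, 4.86 RPKM after glutamate, and their highest mean was 7.07 RPKM. The next lowest median, of immunity and kinase genes, was 5.50 RPKM. The classes were small and drawn up after the values were seen, so this order is only descriptive. AT5G42930, an alpha/beta-hydrolase, went from 0.365 and 0.418 RPKM to 6.65 and 7.48 RPKM. NCED3, the enzyme for the rate-limiting step of stress-induced abscisic acid synthesis, went from 0.353 and 0.318 RPKM to 5.57 and 5.97 RPKM, a ratio of 17.6 (interval 12.8 to 24.8). GPAT2, an acyltransferase of glycerolipid synthesis, reached 5.95 and 4.03 RPKM, the copper transport family gene AT5G52670 reached 3.52 and 5.92 RPKM, the oligopeptide transporter gene OPT2 reached 3.71 and 4.92 RPKM and the glycosyltransferase gene UGT71B5 reached 3.40 and 4.57 RPKM.

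The last 9 transcripts have other or unknown functions. The non-coding RNA AT1G55525 had 0.0541 and 0.186 RPKM before and 13.8 and 25.9 RPKM after glutamate. AT1G30190 and AT5G38700 are both annotated as cotton fiber proteins, and they went from 0.145 and 0.119 RPKM to 13.2 and 13.0 RPKM and from 0.366 and 0.321 RPKM to 12.5 and 10.04 RPKM. AT2G21510, a DNAJ-type co-chaperone, went from 0.118 and 0.105 RPKM to 7.59 and 9.21 RPKM. The uncharacterized AT5G03204 reached 3.42 and 10.02 RPKM, AT5G22540 with a DUF247 domain 5.61 and 5.30 RPKM, and AT3G43250 with a DUF572 domain 3.00 and 5.09 RPKM. KP1 reached 3.49 and 4.34 RPKM and the CHUP1-like gene AT2G36650 reached 4.53 and 3.25 RPKM.

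The glutamate libraries lay within 1.5-fold of each other in most of these genes, but less often than among the 13187 genes at 3 RPKM or more. The second was higher than the first in 33 of 46, or 71.7%, with a median ratio of 1.10, whereas it was higher in 48.3% of the 13187 genes at 3 RPKM or more, with a median ratio of 0.992. The ratio exceeded 1.5 for AT1G55525, AT5G03204, JAZ8, AT5G52670 and AT3G43250, or 5 of the 46, and 4.74% of the 13187 genes lay outside 1.5-fold. The largest, 2.93, belonged to AT5G03204, whose length of 0.111 kb is the shortest of the set. Its glutamate libraries held 7 and 25 reads, together the fewest of the set. The exon length of this gene in TAIR10.1 is 0.464 kb, so its RPKM depends on the length used.

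At the borders of the rule, AT2G24285 at 0.497 RPKM, AT4G22610 at 0.484 RPKM and AT5G52670 at 0.483 RPKM in their higher control library were just inside. NHL25 at 0.505 RPKM, AT4G15150 at 0.506 RPKM and JAZ5 at 0.509 RPKM were just outside, the last 2 of them with 40.9 and 44.3 RPKM and with 55.3 and 61.3 RPKM after glutamate. In their lower glutamate library, AT3G43250 at 3.00 RPKM, AT5G65130 at 3.06 RPKM and AT2G36650 at 3.25 RPKM were just inside, and AT1G62320 at 2.97 RPKM, AT5G40000 at 2.92 RPKM and AT2G38240 at 2.90 RPKM just outside. For the fraction of shared reads, AT1G67000 at 0.0810, AT2G36650 at 0.0468 and PP2-B14 at 0.0307 were inside. CRK39 at 0.117, TET9 at 0.120 and RRTF1 at 0.196 were outside, and RRTF1, an ERF factor, stood at 65.1 and 58.5 RPKM after glutamate from 0.123 and 0.0837 RPKM.

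The genes next to each member were also read. Each was taken from a limma test on log2(RPKM + 1) over the 17750 genes that averaged 1 RPKM or more, called at a Benjamini-Hochberg adjusted p under 0.05. That test called 16.3% of all genes higher and 14.6% lower after glutamate. All 46 genes of the set were called higher, which follows from their choice. Of their 92 adjacent genes, 54 were tested, and 17 were called higher and 6 lower.

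Of 25 neighbours that lie upstream on the same strand, 7 were called higher, and AT1G69252 and AT1G30130 were called lower. The lower call of AT1G30130 (adjusted p = 0.0443) was lost with no filter on low values (adjusted p = 0.0692). The 25 include genes too low to be tested, whereas the 16.3% is a share of tested genes only. Within 400 bases there were 6, of which 4 were called higher, AT5G41560 was not called (adjusted p = 0.141) and IDH-III was not tested. DIP2, which ends 96 bases before AT5G03204, went from 6.07 and 6.50 RPKM to 229 and 284 RPKM (adjusted p = 4.2e-05). AT1G09932, 192 bases before OPT2, went from 11.3 and 12.8 RPKM to 286 and 448 RPKM (adjusted p = 0.000122). PLC5, 1 base before AT5G58680, went from 1.51 and 2.11 RPKM to 7.79 and 12.8 RPKM (adjusted p = 0.00314).

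The fourth, AT1G55530, lies 379 bases before the non-coding AT1G55525 and went from 28.0 and 24.7 RPKM to 51.9 and 38.4 RPKM (adjusted p = 0.0295). Its adjusted p rose to 0.0529 with library totals, to 0.0572 with quantile normalization, to 0.0631 without the second control library and to 0.107 without the first glutamate library. Below AT5G03204, LUL1 stood at 21.4 and 21.3 RPKM before and 22.1 and 22.4 RPKM after glutamate and was not called (adjusted p = 0.730). The part of reads running on from these neighbours in the levels of AT5G03204, OPT2, AT5G58680 and AT1G55525 was not tested.

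Relatives that the rule did not select were then counted in 10 protein families that hold a member, by the same test, with 16.3% higher and 14.6% lower among all genes as the background. Of 11 other tested JAZ repressor genes, 8 were higher and 2 lower. JAZ1 went from 37.6 and 34.0 RPKM to 774 and 673 RPKM (adjusted p = 4.95e-05), and JAZ5 from 0.444 and 0.509 RPKM to 55.3 and 61.3 RPKM (adjusted p = 3.82e-05). JAZ4 fell, from 3.09 and 4.24 RPKM to 1.78 and 1.15 RPKM (adjusted p = 0.0228), a call that did not hold without the second control library (adjusted p = 0.0501) or the second glutamate library (adjusted p = 0.0562). Both lower calls of the family were lost without the second control library, and 1 remained when either glutamate library was left out.

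VQ motif genes were called higher in 13 of 21 and lower in 1. AT2G22880 went from 150 and 200.3 RPKM to 696 and 965 RPKM (adjusted p = 0.00131), and AT4G20000 from 38.3 and 41.0 RPKM to 153 and 192 RPKM (adjusted p = 0.000441). AT3G15300 went from 9.69 and 8.84 RPKM to 5.70 and 5.16 RPKM (adjusted p = 0.0142). That call was lost without the first control library (adjusted p = 0.0501) or the second glutamate library (adjusted p = 0.0774).

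Among the DNA-binding families, AP2/ERF genes were higher in 36 of 100 and lower in 18, C2H2 zinc finger genes higher in 12 of 59 and lower in 11, and bHLH genes higher in 11 of 83 and lower in 29. Lower calls of AP2/ERF genes numbered only 6 without the first glutamate library, and those of C2H2 genes 19 with library totals. The AP2/ERF gene AT1G22810 went from 0.458 and 0.935 RPKM to 83.4 and 62.9 RPKM (adjusted p = 7.38e-05), ERF11 from 7.38 and 9.55 RPKM to 223 and 256 RPKM (adjusted p = 5.83e-05), and AT5G61590 from 404 and 406 RPKM to 54.3 and 51.3 RPKM (adjusted p = 8.36e-05). ZAT7 went from 3.69 and 3.60 RPKM to 529 and 552 RPKM (adjusted p = 3.82e-05), AT3G46080 from 6.14 and 5.34 RPKM to 246 and 257 RPKM (adjusted p = 3.82e-05), and ZFP6 from 28.7 and 42.1 RPKM to 3.89 and 4.97 RPKM (adjusted p = 0.000589). MYC2, the bHLH factor at the centre of jasmonate signalling that JAZ proteins repress, went from 12.5 and 11.9 RPKM to 147 and 143 RPKM (adjusted p = 5.48e-05). AT1G62975 rose from 1.46 and 0.971 RPKM to 25.0 and 20.4 RPKM (adjusted p = 0.000145) and AT5G10570 fell from 7.47 and 6.71 RPKM to 0.643 and 0.964 RPKM (adjusted p = 0.000449), both of the bHLH family.

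Calls in 5 further families were counted in the same way. UDP-glycosyltransferases were called lower in 40 of 88 and higher in 11, cell wall remodelling genes higher in 40 of 168 and lower in 19, and peptide signals higher in 17 of 45 and lower in 7. Ubiquitin ligases were higher in 67 of 268 and lower in 54, and transporters higher in 79 of 493 and lower in 90. The transporter counts, 16.0% higher and 18.3% lower, lay near the shares over all genes. Lower calls of cell wall genes, ubiquitin ligases, transporters and peptide signals depended on single libraries. Without the second glutamate library they numbered 12 for cell wall genes, 35 for ubiquitin ligases and 59 for transporters. Without the first glutamate library ubiquitin ligases had 34, and without the second control library peptide signals had 4. With library totals in place of the TMM scaling, the share of higher genes among all calls moved from 52.8% to 35.8%. Higher and lower calls were then 9 and 48 for UDP-glycosyltransferases, 36 and 29 for cell wall genes, 15 and 11 for peptide signals, 56 and 80 for ubiquitin ligases and 62 and 157 for transporters.

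**Figure D5:**
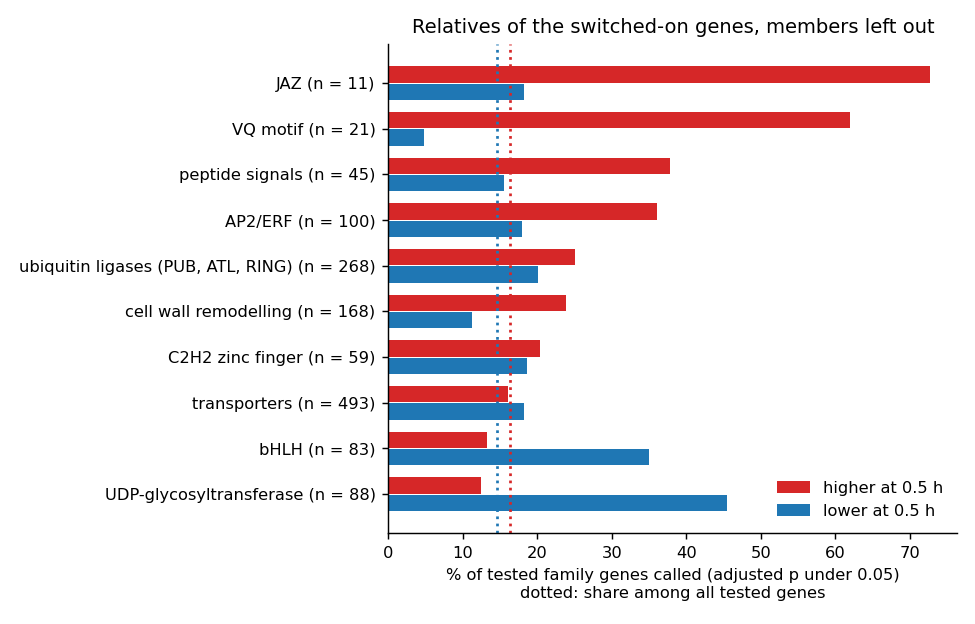
Percent of tested genes called higher (red) or lower (blue) after glutamate (x) in 10 families (y) that hold a member, with the members left out and the number tested in parentheses. Dotted lines mark 16.3% higher and 14.6% lower among all 17750 genes tested. Higher calls are 8 of 11 for JAZ genes and lower calls 40 of 88 for UDP-glycosyltransferases.

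The named genes of these families spanned large ranges. AGP1, an arabinogalactan protein gene, rose from 4.01 and 3.03 RPKM to 917 and 679 RPKM (adjusted p = 4.13e-05), and XTH18, a xyloglucan-modifying enzyme gene, from 15.4 and 11.2 RPKM to 2073 and 1723 RPKM (adjusted p = 4.17e-05), while EXPA1, an expansin gene, fell from 87.9 and 61.5 RPKM to 11.1 and 11.5 RPKM (adjusted p = 0.000449). UGT73C1 fell from 20.1 and 17.8 RPKM to 0.818 and 0.567 RPKM (adjusted p = 9.11e-05), AT2G28080 rose from 4.07 and 3.00 RPKM to 19.1 and 21.1 RPKM (adjusted p = 0.000446), and AT5G04480 rose from 6.12 and 5.55 RPKM to 19.99 and 19.75 RPKM (adjusted p = 0.000514). The RING gene AT1G20823 rose from 2.34 and 1.67 RPKM to 97.5 and 74.5 RPKM (adjusted p = 7.82e-05), RING1 from 2.37 and 1.97 RPKM to 59.7 and 50.9 RPKM (adjusted p = 5.83e-05), and AT5G47610 fell from 52.2 and 36.4 RPKM to 5.26 and 5.50 RPKM (adjusted p = 0.000359).

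Among peptide genes, PROPEP1 rose from 1.31 and 1.96 RPKM to 23.2 and 31.5 RPKM (adjusted p = 0.000237), CLE14 from 3.36 and 3.19 RPKM to 24.9 and 51.6 RPKM (adjusted p = 0.00163), and CLE2 fell from 5.37 and 8.23 RPKM to 1.78 and 1.38 RPKM (adjusted p = 0.0043). The efflux carrier genes AT1G61890 and AT1G11670 rose from 4.29 and 2.96 RPKM to 227 and 154 RPKM (adjusted p = 1.0e-04) and from 5.35 and 3.07 RPKM to 78.9 and 66.1 RPKM (adjusted p = 0.000256). AMT1;3, a root ammonium transporter gene, fell from 22.1 and 18.7 RPKM to 3.12 and 2.69 RPKM (adjusted p = 0.000235).

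The closest relatives of single members were also looked up. For EXLA3, EXLA1 rose from 28.5 and 30.8 RPKM to 466 and 313 RPKM (adjusted p = 0.000205) and EXLA2 from 1.52 and 1.28 RPKM to 9.73 and 9.93 RPKM (adjusted p = 0.000262), the remaining genes of this small family. BAP1 rose from 12.1 and 12.5 RPKM to 113 and 150 RPKM (adjusted p = 0.000137). PUB18 rose from 0.458 and 0.192 RPKM to 1.86 and 2.55 RPKM (adjusted p = 0.00627). The ABI5-binding relative TMAC2 rose from 18.1 and 19.4 RPKM to 41.8 and 45.5 RPKM (adjusted p = 0.00155), while AFP2 and AFP3 did not pass (adjusted p = 0.0972 and 0.326).

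Of the 7 PROPEP genes, PROPEP4 aside, PROPEP1, PROPEP2, PROPEP3 and PEP7 were called higher and PROPEP5 and PROPEP6 lower. PROPEP3 had the highest level, 66.9 and 82.1 RPKM after glutamate from 15.4 and 16.2 RPKM (adjusted p = 0.00034). PROPEP5 fell from 2.91 and 4.25 RPKM to 1.41 and 1.61 RPKM (adjusted p = 0.0226), a call lost without the second control library (adjusted p = 0.0636). The fall of PROPEP6, with an adjusted p of 0.0152, was lost without that library (adjusted p = 0.0554) or without the first glutamate library (adjusted p = 0.0617).

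Of the MAP kinase kinases other than MKK6, MKK2, MKK4, MKK5 and MKK9 were called higher and MEK1 and MKK3 did not pass (adjusted p = 0.985 and 0.129). MKK4 rose from 5.57 and 5.20 RPKM to 70.8 and 69.7 RPKM (adjusted p = 5.48e-05), and MKK9 lost its call without the second glutamate library (adjusted p = 0.0815). In the RIN4 family, RIN4 itself rose from 62.3 and 73.2 RPKM to 119 and 146 RPKM (adjusted p = 0.00867). Counting RIN4, 3 of the 5 tested genes of this family outside the set were called higher, and 3 more were not tested. Of 68 other tested TIR-NBS-LRR genes, 34 were higher and 7 lower, against 16.3% and 14.6% of all genes, and with library totals 31 were higher and 12 lower.

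The abscisic acid, oligopeptide and lipid-transfer relatives are given last. NCED2, NCED5, NCED6 and NCED9 had means at or under 0.149 RPKM in both groups and were not tested, and NCED4, whose product cleaves carotenoids outside abscisic acid synthesis, fell from 44.1 and 43.6 RPKM to 4.65 and 4.16 RPKM (adjusted p = 8.36e-05). Of the 6 tested oligopeptide transporters other than OPT2, 5 did not pass, and OPT6 fell from 39.5 and 30.7 RPKM to 17.5 and 12.4 RPKM (adjusted p = 0.0101). Lower calls among the 6 numbered 3 with library totals or without the second control library. In the lipid-transfer superfamily 3 of 39 other tested genes were higher and 8 lower, against 16.3% and 14.6% of all genes. Only 4 were lower without the first control library or without either glutamate library. AT2G44290 had the largest rise of these 39 genes, from a mean of 29.7 to 286 RPKM (adjusted p = 8.78e-05).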

How the data were processed

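RNA-seq of whole seedlings was analysed in 4 libraries, 2 per group, from deposited RPKM values for 33602 genes, and no counts were given. The authors' RPKM values are labelled as TMM-normalized. Per the submitters' processing notes, TAIR10 and SAMtools were used, and the sources used here name no aligner, counter or strand setting. The deposited column maxMultiRatio holds a fraction, undefined in the header.

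Reads were recovered as RPKM times length times an effective library size minus 0.5, and were whole within 0.01 for 99.9% or more of genes whose maxMultiRatio is 0, and across the whole table for 85.3% to 86.2%. Within groups, libraries differed beyond counting noise, with a chi-square per degree of freedom of 31.7 and 27.1. Ratios of members are summed reads over effective library sizes with exact 95% conditional binomial intervals.

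Tests used limma 3.58.1 in R 4.3.3 on log2(RPKM + 1) with an intensity trend, two-sided, for genes averaging 1 RPKM or more over the 4 libraries, and Benjamini-Hochberg adjustment over all 17750 genes. The steps were tested on simulated data. An RPKM of a low gene changes less on this log2 scale than as a ratio. Families were matched by symbol or product in RefSeq TAIR10.1, which holds 32835 of the identifiers and all 46 members. The deposited gene length equals the TAIR10.1 exon length for 31.6% of genes, so positions come only from TAIR10.1. Python 3.11.15, pandas 2.3.3, SciPy 1.17.1 and matplotlib 3.10.9 were used.

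The members, the families and the motifs were chosen with earlier results of these data known. The protein classes, the sets of close relatives and the choice of printed promoters were made after the values were seen, and the pattern for peptide signals was narrowed once, to drop a gene matched by a synonym. Named genes are the members, those nearest to each threshold and, per family with a member, the 2 largest rises and the largest fall among called genes with a maxMultiRatio under 0.1. Further neighbours and relatives were named after their values were seen.

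Alternatives were other thresholds, pseudocounts of 0.5 and 0.1, no filter, a mean of at least 5 RPKM, library totals, quantile normalization, a replicate block, each library left out and, for motifs, only the bases upstream of the start.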

Additional observations from a re-analysis of the deposited data

How the results depend on the processing

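The count of 46 depends on its thresholds. A control ceiling of 0.25 or 1 RPKM gave 22 or 102 genes, and a glutamate minimum of 2 or 5 RPKM gave 70 or 28 genes with median levels of 4.68 or 11.0 RPKM. Library totals gave 41, quantile normalization 42, a maxMultiRatio of 0 only 38 and no limit on it 50. Leaving out one library at a time gave 51 to 72 genes, the most without control replicate 1, and median levels of 5.27 to 7.16 RPKM. A rule with one library fewer is looser and keeps every member by construction. The lowest median, 5.27 RPKM, was without glutamate replicate 2. Across the table, 2888 genes were called higher and 2585 lower, and leaving out one library gave 2490 to 2727 higher and 1741 to 2072 lower. For the other family genes it gave 547 to 593 higher and 368 to 439 lower, against 603 and 483. Library totals gave 4364 lower calls, and the median log2 change over tested genes was then -0.23, against -0.06 with the deposited scaling and -0.15 with quantile normalization. The cause was not tested. The share of higher calls was 35.8% with library totals and 44.0% with quantile normalization, against 52.8%. Libraries with the same number deviated together (r = 0.60), but with 2 pairs and no label on what a number marks, the numbers were not taken as pairing the samples. With the replicate block, 4445 genes were called higher and 5280 lower, 819 of the lower calls among other family genes. Motif shares stayed within their intervals with only the bases upstream of the start, the CAMTA letters being then in 26.7% of genes against 8.68% of all. At this depth a control value under 0.104 RPKM at 1 kb rests on fewer than 3 reads, so the size of the highest ratios is limited by the reads before glutamate.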

Other observations

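A group of 4 genes met the level thresholds but were left out for shared reads, and their values are uncertain for that reason. They were CRK39, a cysteine-rich receptor-like kinase gene at 9.17 and 6.42 RPKM after glutamate, TET9, a tetraspanin gene at 19.1 and 16.7 RPKM, RRTF1, and AT1G67856 with a maxMultiRatio of 1, at 21.6 and 26.5 RPKM. Their control values were between 0.0177 and 0.176 RPKM.

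The 13 families without a member were also counted by the same limma test, which called 16.3% of all genes higher and 14.6% lower. Calmodulin-like genes were called higher in 28 of 52 and lower in 3, heat shock factors higher in 10 of 18 and lower in 3, and WRKY factors higher in 21 of 53 and lower in 11. Cytochrome P450 genes were lower in 61 of 127 and higher in 17. Late embryogenesis abundant genes and dehydrins were higher in 44 of 85 and lower in 7. Protein phosphatases 2C were higher in 22 of 57 and lower in 7, receptor-like kinases and proteins higher in 67 of 256 and lower in 33, and MYB factors higher in 29 of 98 and lower in 18. Small auxin-up RNAs were higher in 7 of 34 and lower in 15, NAC factors higher in 11 of 56 and lower in 16, and glutathione transferases higher in 11 of 45 and lower in 11. Heat shock proteins were higher in 26 of 139 and lower in 14, and lipases and acyl hydrolases higher in 20 of 106 and lower in 13, higher shares near that over all genes. Leaving out one library took the lower calls to as few as 6 for heat shock proteins, without glutamate replicate 1, where they were also 4 for protein phosphatases. Without glutamate replicate 2 they were 8 for heat shock proteins, 8 for lipases and 21 for receptor-like kinases, without control replicate 1 they were 8 for lipases, and without control replicate 2 they were 9 for heat shock proteins. Library totals gave 6 lower calls for calmodulin-like genes, 11 for late embryogenesis genes, 17 for glutathione transferases, 25 each for heat shock proteins and lipases, and 58 for receptor-like kinases.

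Several genes next to members were called higher as well, in addition to the upstream ones. NUDT21, downstream of AT1G73550, went from 19.0 and 16.6 RPKM to 339 and 312 RPKM (limma adjusted p = 4.95e-05). AT5G22530, downstream of AT5G22540 on the other strand, went from 0.442 and 0.565 RPKM to 10.3 and 12.6 RPKM (limma adjusted p = 0.000145). GA2OX6, a gibberellin-inactivating enzyme gene downstream of GPAT2, went from 21.4 and 25.0 RPKM to 254 and 295 RPKM (limma adjusted p = 9.1e-05).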
